A study of Homo sapiens with 4 samples.

Results

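The Wnt/beta-catenin pathway was followed in Huh7 and HepG2 cells through 10 genes, CTNNB1, which encodes beta-catenin, and 9 genes that Wnt signalling is known to switch on in liver, AXIN2, NKD1, NOTUM, SP5, LGR5, RNF43, ZNRF3, TBX3 and GLUL. They were chosen by name from a list drawn up for the pathway, and all 10 were found among the 46427 genes of the tables. Both are human cell lines grown from liver tumours, with hepatocellular carcinoma given as their cell type. The labels give the genotype as WT with the control siRNA and COP1 Knockdown with the other, and do not mention that HepG2 carries a deletion within CTNNB1. Each line received 20 nM of either the control siRNA (NC-siRNA) or the siRNA that targets COP1 (COP1-siRNA), and RNA was taken 48 h later. COP1 encodes an E3 ubiquitin ligase. Each condition was sequenced once, in 4 libraries that share 1 batch label, so no difference below has a replicate check, an error or a p-value.

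In the absence of a Wnt signal, beta-catenin is held low by a destruction complex in which AXIN and APC bring it to the kinases CK1 and GSK3, and the phosphorylated protein is degraded. Wnt proteins bound to Frizzled and LRP5 or LRP6 stop this complex, and beta-catenin then acts with TCF/LEF factors on its target genes, many of which encode inhibitors of the same pathway. Deletions in the amino-terminal part of beta-catenin remove the sites at which it is phosphorylated, so the protein is no longer degraded in this way. In the liver the pathway is active in the hepatocytes around the central vein, which express GLUL. The tables give 1 value per gene, so the deleted part of CTNNB1 in HepG2 was not examined, and the amount of beta-catenin protein was not measured.

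The level of a gene was taken as TPM, a measure of transcript abundance which is scaled for gene length and within each library. Expression differences were computed as log2((TPM + 1)/(TPM + 1)), a scale that understates the change of genes with low TPM. A gene was compared where it reached 1 TPM in at least 1 of both libraries, and 2-fold was the threshold. The number of reads was unknown. Coverage divided by FPKM, a figure that grows with depth, was 5.75 to 7.47 over the 4 libraries and was 1.13 times as high with COP1-siRNA as with NC-siRNA in Huh7 and 1.27 times as high in HepG2. In Huh7, COP1 (gene 64326) had a level of 19.7 TPM under the control siRNA and 6.18 TPM under its own, and in HepG2 of 26.9 and 16.1 TPM, so that 31.4% and 59.9% of its level was left. All 12 hepatocyte and hepatoma markers were at 1 TPM or more in every library, with a summed TPM of 21100 to 23900 in Huh7 and 3510 to 4100 in HepG2. Of the markers of other cell types, 3 of 5 biliary genes reached 1 TPM in every library, led by KRT19, with a summed TPM of 95.1 to 246. Of 6 fibroblast and stellate genes 1 did, LUM at 121 TPM in Huh7 and COL1A1 at 2.33 and 2.47 TPM in HepG2, while DCN was listed at 0 throughout. Of 5 endothelial genes, PECAM1 reached 5.08 and 7.36 TPM in Huh7 and none reached 1 TPM in HepG2. Of 6 blood genes 1 or 2 did, led by CD68 at 15.6 to 58.2 TPM, and PTPRC, CD3E and HBB were listed at 0 in every library. The part of other cell types in the differences below was not tested.

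The promoter of SP5 is shown because, among the 4 members with a promoter window in RefSeq, it was the one that held letters known to be bound by TCF/LEF factors. SP5 encodes a transcription factor of the Sp family and is annotated on GRCh38 chromosome 2, plus strand, from 170714725 to 170718078 in the tables. The 250 bases before the RefSeq start, chr2:170715087-170715336 on the plus strand of GRCh38.p14, are shown 5′ to 3′, with its matches to CTTTGAT or CTTTGAA, on either strand, in capitals (TTCAAAG is CTTTGAA read on the other strand):
SP5 promoter: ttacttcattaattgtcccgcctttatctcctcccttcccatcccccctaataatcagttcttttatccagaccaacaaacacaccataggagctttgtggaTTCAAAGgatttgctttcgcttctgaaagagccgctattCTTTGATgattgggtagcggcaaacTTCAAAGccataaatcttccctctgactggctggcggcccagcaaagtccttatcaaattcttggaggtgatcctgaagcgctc
The 3 matches, 1 to CTTTGAT on the strand of the gene and 2 to CTTTGAA on the other strand, began 109, 148 and 84 bases before the annotated start and did not overlap. At least 1 match was present in 6.86% of 35116 RefSeq promoter windows, which hold these 250 bases and 50 more, and at least 3 matches in 0.0256% of them, 9 windows in all. The 5 windows of CTNNB1, RNF43 and GLUL held no match. The tables start SP5 upstream of the RefSeq start, and no reads over this window were examined. A match of letters shows neither binding nor use of the site.

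CTNNB1 (gene 1499) is annotated on chromosome 3, plus strand, from 41199422 to 41240445. CTNNB1 was at 371 TPM in Huh7 with NC-siRNA, 358 TPM in Huh7 with COP1-siRNA, 318 TPM in HepG2 with NC-siRNA and 308 TPM in HepG2 with COP1-siRNA. It was the member with the highest TPM in each of the 4 libraries, and both HepG2 values lay below both Huh7 values. The difference of HepG2 from Huh7 was −0.22 on the log2(TPM + 1) scale with either siRNA, well short of 2-fold. That between COP1-siRNA and NC-siRNA was −0.05 in Huh7 and −0.04 in HepG2.

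The rank of CTNNB1 above GLUL depended on the column of the tables that was read. The coverage of each gene, its mean number of reads per base, was divided by the library's largest ratio of coverage to FPKM and put on the TPM scale, and is called scaled coverage here. The scaled coverage of NOTUM equalled its TPM in every library, while that of CTNNB1 was 0.119 to 0.12 of it. The ratio did not follow the number of RefSeq transcripts, which was 1 for NOTUM and 14 for CTNNB1 but 12 for AXIN2, with a ratio of 0.782 to 0.825, and 2 for both TBX3, at 0.993 to 0.995, and ZNRF3. By scaled coverage CTNNB1 stood at 36.9 to 44.0 and GLUL at 85.2 to 132, so GLUL was then the highest member in every library. The scaled coverage of ZNRF3 was 0.056 of its TPM in each library, so its TPM of 11.9 to 13.4 became a scaled coverage of 0.666 to 0.751, under 1. The ratios of CTNNB1 and of ZNRF3 did not differ between libraries by more than these figures, so their differences between libraries were nearly the same in both columns. Over all genes of at least 1 TPM the median of this ratio was 0.834 to 0.839.

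**Figure D1:**
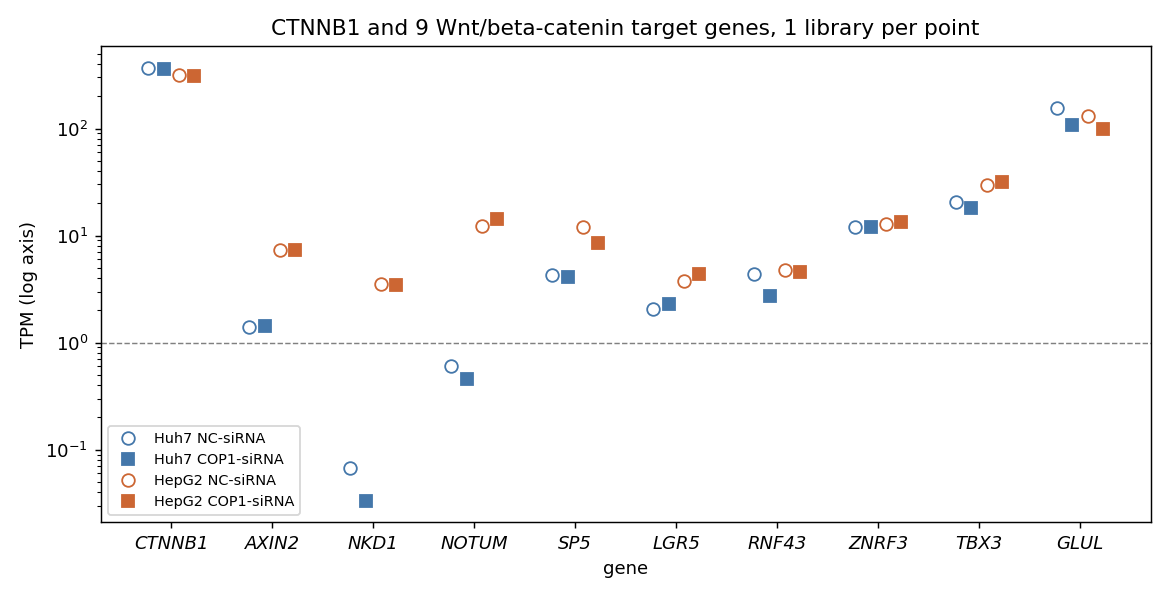
TPM of CTNNB1 and the 9 target genes (horizontal axis) on a log axis, 1 point per library: blue for Huh7, orange for HepG2, open circles for NC-siRNA and filled squares for COP1-siRNA, with a dashed line at 1 TPM. AXIN2, NKD1, NOTUM, SP5, LGR5, TBX3, RNF43 and ZNRF3 have both HepG2 points above both Huh7 points in TPM as deposited (the NC-siRNA order of RNF43 and the order of ZNRF3 turn with median-of-ratios or quantile scaling), CTNNB1 has both below, and the lines overlap for GLUL.

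With NC-siRNA, 4 of the 10 genes were at least 2-fold higher in HepG2 than in Huh7, namely NOTUM, NKD1, AXIN2 and SP5, and none was at least 2-fold lower. NOTUM and NKD1 were under 1 TPM in Huh7, so they were compared through HepG2 alone and could only be higher there. Of all 15055 genes compared, 27.9% were at least 2-fold higher in HepG2 and 14.7% at least 2-fold lower. The median difference of the members was 0.56 and that of all genes compared 0.369, so a large part of the table was also higher in HepG2. With COP1-siRNA, 3 of the 10 genes were at least 2-fold higher in HepG2, NOTUM, NKD1 and AXIN2, and none was lower, against 26.0% higher and 14.0% lower among 15126 genes. The median of the members was then 0.74, and that of all genes 0.347. HepG2 and Huh7 differ in far more than CTNNB1, so the line and the mutation cannot be told apart.

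AXIN2 (gene 8313, chromosome 17, 65528563 to 65561648, minus strand) encodes a scaffold of the destruction complex and is a widely used readout of the pathway. AXIN2 was at 1.41 and 1.43 TPM in Huh7 and at 7.26 and 7.33 TPM in HepG2, with NC-siRNA and COP1-siRNA in turn. The libraries of a line were nearly equal, and the lines did not overlap. The HepG2 level was 5.13 times that of Huh7 with either siRNA, a difference of 1.77 with NC-siRNA and 1.78 with COP1-siRNA on the log2(TPM + 1) scale. Its mean coverage was 3.13 and 3.60 reads per base in Huh7 and 14.1 and 18.2 in HepG2.

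NKD1 (gene 85407, chromosome 16, 50548396 to 50649249, plus strand) encodes a protein that binds Dishevelled and dampens the signal. NKD1 was nearly silent in Huh7, at 0.0669 and 0.0334 TPM in the order NC-siRNA and COP1-siRNA, and at 3.51 and 3.46 TPM in HepG2. Its coverage in Huh7 was 0.179 and 0.105 reads per base against 8.0 and 9.90 in HepG2, so the Huh7 values rest on very few reads. The difference between the lines was 2.08 with NC-siRNA and 2.11 with COP1-siRNA on the log2(TPM + 1) scale, and with a pseudocount of 0.1 in place of 1 it became 4.43 and 4.74.

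NOTUM (gene 147111, chromosome 17, 81952507 to 81961187, minus strand) encodes a secreted enzyme that removes the lipid of Wnt proteins and so inactivates them. NOTUM was at 0.604 and 0.461 TPM in Huh7 and at 12.4 and 14.2 TPM in HepG2, with NC-siRNA and COP1-siRNA in turn. It was 20.5 times as high in HepG2 with NC-siRNA and 30.8 times as high with COP1-siRNA, or 3.06 and 3.38 on the log2(TPM + 1) scale. These were the largest differences of the 10 genes with the pseudocount of 1, but NKD1 came first with a pseudocount of 0.1, at 4.43 and 4.74 against 4.15 and 4.67 for NOTUM, and by the plain ratio of TPM, at 52.5 and 104.

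SP5 (gene 389058) was at 4.24 and 4.10 TPM in Huh7 and at 12.1 and 8.50 TPM in HepG2. With NC-siRNA the line difference of SP5 was 1.32 on the log2(TPM + 1) scale, past 2-fold, and with COP1-siRNA it was 0.90, short of it. Scaled coverage gave the opposite order, 0.99 with NC-siRNA and 1.15 with COP1-siRNA, so which comparison passed 2-fold depended on the column.

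The other members differed less between the lines. LGR5 (gene 8549, chromosome 12, 71439798 to 71586310, plus strand), a receptor for R-spondins, was at 2.08 and 2.29 TPM in Huh7 and at 3.76 and 4.34 TPM in HepG2, or 0.63 and 0.70 higher on the log2(TPM + 1) scale. TBX3 (gene 6926, chromosome 12, 114670255 to 114684175, minus strand), a transcriptional repressor of the T-box family, was at 20.7 and 18.0 TPM in Huh7 and at 29.6 and 31.9 TPM in HepG2. Neither gene reached 2-fold, although the lines did not overlap in either in TPM as deposited. With quantile scaling the line difference of LGR5 was 0.07 with NC-siRNA and 0.22 with COP1-siRNA. That of TBX3 was 0.50 and 0.79 as deposited, and 0.17 and 0.47 with median-of-ratios scaling.

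RNF43 (gene 54894, chromosome 17, 58352500 to 58418894, minus strand) and ZNRF3 (gene 84133, chromosome 22, 28800657 to 29057488, plus strand) encode related membrane E3 ligases that take Frizzled receptors off the cell surface. RNF43 was at 4.33 and 2.75 TPM in Huh7 and at 4.79 and 4.53 TPM in HepG2. ZNRF3 was at 12.1 and 11.9 TPM in Huh7 and at 12.7 and 13.4 TPM in HepG2. With NC-siRNA the line difference of RNF43 was 0.12 as deposited, −0.16 with median-of-ratios and −0.34 with quantile scaling, and that of ZNRF3 was 0.06, −0.25 and −0.17, so both changed sign with the scaling. With COP1-siRNA the difference of RNF43 was 0.56, and the alternatives that could change it gave 0.09 to 0.70. Relative to the median of all genes it was 0.21 as deposited, and 0.04 with quantile scaling or scaled coverage. That of ZNRF3 with COP1-siRNA was 0.16 and ran from −0.14 to 0.21.

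GLUL (gene 2752, chromosome 1, 182378093 to 182392206, minus strand) encodes glutamine synthetase. GLUL was at 154 and 109 TPM in Huh7 and at 130 and 98.6 TPM in HepG2, a line difference of −0.25 with NC-siRNA and −0.14 with COP1-siRNA. The 5 processed copies of GLUL in the tables, GLULP1, GLULP2, GLULP3, GLULP4 and GLULP6, were each at most 0.028 TPM.

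**Figure D2:**
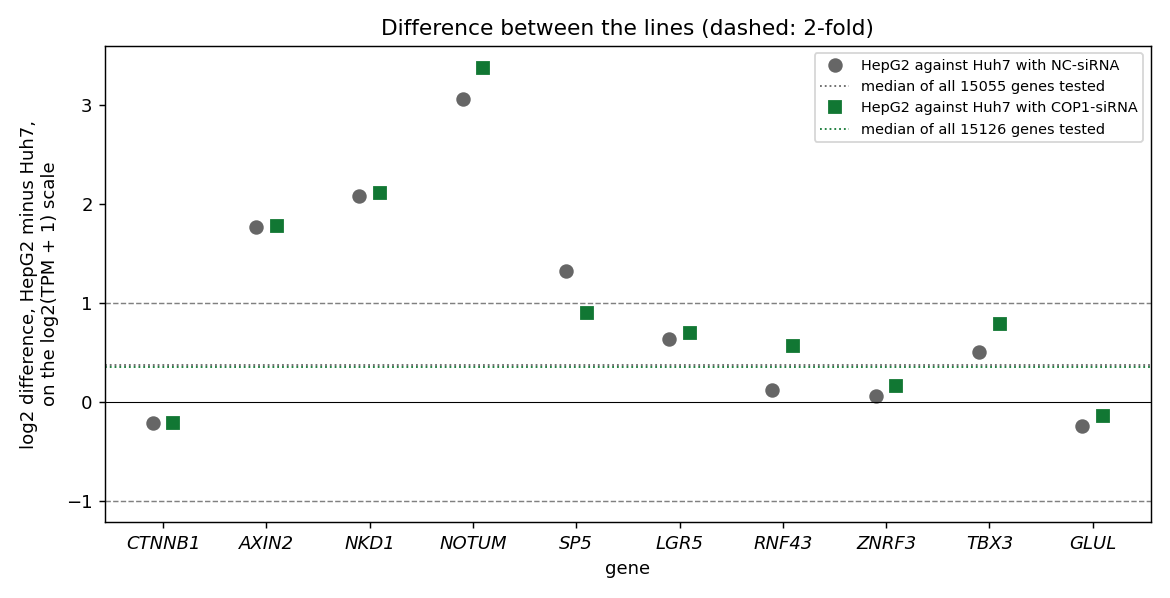
Difference of HepG2 from Huh7 on the log2(TPM + 1) scale for each gene, with NC-siRNA (grey circles) and with COP1-siRNA (green squares), with dotted lines at the median of all genes compared, 0.369 and 0.347, and dashed lines at 2-fold. NOTUM, NKD1 and AXIN2 lie above 2-fold with both siRNAs and SP5 with NC-siRNA alone, while RNF43 with NC-siRNA and ZNRF3 with both lie near 0 and change sign with median-of-ratios or quantile scaling.

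The height of all these differences depended on how the libraries were set against each other, since TPM shares a fixed total within each library. The top 10 genes by TPM took up 13.2% and 14.6% of the total in Huh7 but 8.02% and 8.05% in HepG2. Median-of-ratios scaling brought the median difference of all genes with NC-siRNA from 0.369 to 0.042, and the genes past 2-fold from 4194 higher and 2215 lower to 3125 higher and 2899 lower. Relative to the median of all genes as deposited, NOTUM differed by 2.69, NKD1 by 1.71, AXIN2 by 1.40, SP5 by 0.95, LGR5 by 0.26 and TBX3 by 0.13 with NC-siRNA. On the same footing RNF43 stood at −0.25, ZNRF3 at −0.31, CTNNB1 at −0.59 and GLUL at −0.62.

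The second question was whether any of these genes moved when COP1 was knocked down. No member passed 2-fold in either direction in either line. COP1 itself was at −1.53 in Huh7 and −0.71 in HepG2, so in HepG2 the targeted gene was also short of 2-fold. In Huh7, 8 of the 10 genes reached the minimum level and their differences ran from −0.51 to 0.09, with a median of −0.04 against −0.001 for all 13000 genes compared. In HepG2 all 10 genes were compared, the differences ran from −0.46 to 0.18, and 5 were above 0 and 5 below. The threshold itself was seldom passed. In Huh7, COP1-siRNA put 0.638% of all genes at 2-fold higher or more and 0.446% at 2-fold lower or more, and in HepG2 these shares were 0.54% and 0.394%, so 0 of 10 members is near the background. The middle 95% of all genes ran from −0.60 to 0.61 (Huh7) and from −0.53 to 0.59 (HepG2), and every member compared was inside these ranges.

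GLUL was well below 0 in both lines. It went from 154 to 109 TPM in Huh7, with 70.9% left, and from 130 to 98.6 TPM in HepG2, with 76.1% left. The differences of GLUL were −0.49 and −0.39 by TPM and −0.53 and −0.36 by scaled coverage. All 4 values lay below 0 and short of 2-fold.

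For RNF43 in Huh7 and SP5 in HepG2, the difference by TPM was larger than that by coverage. RNF43 went from 4.33 to 2.75 TPM in Huh7, a difference of −0.51, while its scaled coverage went from 2.42 to 1.89, a difference of −0.24. In HepG2 the gene was at 4.79 and 4.53 TPM. SP5 went from 12.1 to 8.50 TPM in HepG2, a difference of −0.46, while its scaled coverage was 8.04 and 8.06, a difference of 0.00. The scaled coverage of SP5 was 0.665 of its TPM with NC-siRNA and 0.948 with COP1-siRNA in HepG2, and 0.835 and 0.755 in Huh7. The part of transcript assignment in these TPM values was not tested.

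AXIN2 differed by 0.01 between the siRNAs in either line, NKD1 by −0.01 in HepG2, and ZNRF3 by −0.02 in Huh7 and 0.07 in HepG2. LGR5 was at 2.08 and 2.29 TPM in Huh7 and at 3.76 and 4.34 TPM in HepG2, differences of 0.09 and 0.17. NOTUM differed by 0.18 in HepG2, and in Huh7 both of its values were under 1 TPM. TBX3 differed by −0.19 in Huh7 and 0.10 in HepG2. None of these differences could be set against a replicate error.

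**Figure D3:**
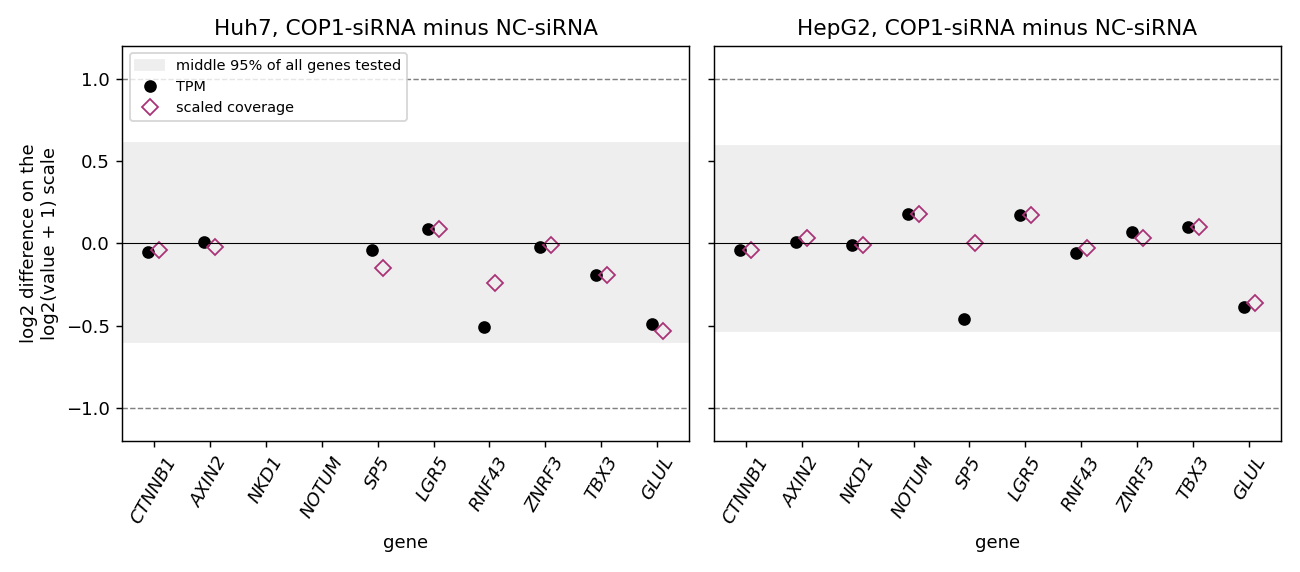
Difference of COP1-siRNA from NC-siRNA in Huh7 (left) and HepG2 (right) for each gene that reached 1 TPM in at least 1 library of the line, from TPM (black circles) and from scaled coverage (open diamonds), each on the log2(value + 1) scale. The grey band is the middle 95% of all genes compared and the dashed lines are 2-fold: no gene leaves the band, and the circles and diamonds lie apart for RNF43 in Huh7 (−0.51 and −0.24) and SP5 in HepG2 (−0.46 and 0.00).

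To see where in the pathway the lines parted, 109 further genes in 6 lists by role were described in the same way. All 109 were in the tables, and 75 reached the minimum level with NC-siRNA. With either siRNA, 53 of the 109 reached it in Huh7 and 73 in HepG2. A gene that reached it in 1 line alone could only be higher in that line. Of these, 33 (44.0%) were at least 2-fold higher in HepG2 and 13 (17.3%) at least 2-fold lower, beside the 27.9% and 14.7% of all genes, with a median difference of 0.88 beside 0.369. Among the 33 were 7 genes listed at 0 in Huh7 with NC-siRNA, for which no fold is given. With COP1-siRNA, 29 of 71 genes (40.8%) were higher and 12 (16.9%) lower, beside 26.0% and 14.0% of all genes. Between COP1-siRNA and NC-siRNA none of the lists' genes passed 2-fold, with 53 compared in Huh7 and 73 in HepG2. The lowest of these values was that of DVL3 in Huh7, at −0.72, which was picked out after its value was seen.

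Among Wnt ligands and their secretion, 9 of 25 genes were compared with NC-siRNA. At least 2-fold higher in HepG2 were 6 (66.7%) and none was lower, beside 27.9% and 14.7% of all genes. Only 2 of the 25 reached 1 TPM in a Huh7 library. Most were thus compared through HepG2 alone and could only be higher there. WLS, the carrier that brings Wnt proteins to the cell surface, was listed at 0 in Huh7 with NC-siRNA and at 0.0179 TPM with COP1-siRNA, and at 105 and 112 TPM in HepG2. WNT5A, a ligand best known for signalling without beta-catenin, was at 0.0311 and 0.0339 TPM in Huh7 and at 20.9 and 21.3 TPM in HepG2. WNT5B was at 0.0282 and 0.0855 TPM in Huh7 and 3.40 and 2.45 TPM in HepG2, and WNT11 at 0.278 and 0.102 TPM against 4.06 and 3.88 TPM. By scaled coverage WNT5B was at only 0.0884 and 0.0635 in HepG2. Its line difference with NC-siRNA was 2.1 by TPM and 0.12 by scaled coverage. The 4 R-spondins, RSPO1 to RSPO4, which act through LGR receptors, were under 1 TPM in every library.

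The receptors were split between the lines. Of 15 compared with NC-siRNA, 8 (53.3%) were at least 2-fold higher in HepG2 and 4 (26.7%) at least 2-fold lower, beside 27.9% and 14.7% of all genes. Most of the 8, with FZD6, FZD9 and ROR1 among them, were under 1 TPM in Huh7. They were compared through HepG2 alone and could only be higher there. FZD6 was at 0.446 and 0.607 TPM in Huh7 and at 18.2 and 21.0 TPM in HepG2, a difference of 3.73 with NC-siRNA and 3.78 with COP1-siRNA. FZD9, at 2.24 and 2.17, and ROR1, at 2.19 and 2.21, were also higher in HepG2. By scaled coverage, which was 0.186 and 0.202 for ROR1 in HepG2, its differences were 0.23 and 0.25, short of 2-fold. FZD5 was at 41.8 and 46.2 TPM in Huh7 and at 8.23 and 10.5 TPM in HepG2. LGR4, the R-spondin receptor related to LGR5, was at 107 and 95.1 TPM in Huh7 and at 17.6 and 19.8 TPM in HepG2, differences of −2.53 and −2.20, opposite in direction to LGR5.

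In the destruction complex and its regulators, 4 of 15 genes were at least 2-fold higher in HepG2 and 1 lower with NC-siRNA, 26.7% and 6.67%, close to or below the share of all genes. CSNK1E, a CK1 kinase, was at 41.3 and 39.5 TPM in Huh7 and at 286 and 270 TPM in HepG2. AMER1, a membrane partner of APC, was at 0.333 and 0.305 TPM in Huh7 and at 5.25 and 5.90 TPM in HepG2. AXIN1, the scaffold that AXIN2 resembles, was at 11.9 and 9.20 TPM in Huh7 and at 27.3 and 20.4 TPM in HepG2, a difference of 1.13 with NC-siRNA. BTRC, which recognises phosphorylated beta-catenin for degradation, was at 6.70 and 5.51 TPM in Huh7 and at 16.9 and 15.1 TPM in HepG2. By scaled coverage the differences with NC-siRNA were 0.97 for AXIN1 and 0.82 for BTRC, short of 2-fold. GSK3B was the lower gene, at 34.5 and 35.9 TPM against 15.8 and 17.4 TPM. APC was at 4.83 and 5.55 TPM in Huh7 and at 9.89 and 10.4 TPM in HepG2, and CSNK1A1 at 54.8 and 57.8 TPM against 83.4 and 83.6 TPM, short of 2-fold in both cases.

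Of the 16 TCF/LEF factors and nuclear partners compared with NC-siRNA, 6 (37.5%) were at least 2-fold higher in HepG2 and 2 (12.5%) lower. Of all genes, 27.9% were higher and 14.7% lower. LEF1, a DNA-binding partner of beta-catenin, was at 0.0911 and 0.161 TPM in Huh7 and at 22.6 and 22.9 TPM in HepG2, a difference of 4.43 with NC-siRNA and 4.36 with COP1-siRNA. TCF7L1 was also past 2-fold, at 1.21 and 1.67 TPM in Huh7 and 4.45 and 5.47 TPM in HepG2, differences of 1.31 and 1.28. TCF7L2 and TCF7 were short of 2-fold. TCF7L2 was at 18.7 and 16.6 TPM in Huh7 and at 20.2 TPM in both HepG2 libraries, and TCF7 was at 8.17 and 6.03 TPM against 11.4 and 10.6 TPM. The corepressors TLE3, at 1.93 and 1.72, and TLE4, at 1.91 and 2.21, and PYGO1, at 1.88 and 1.97, were higher in HepG2. BCL9L, a coactivator of beta-catenin, was lower there, at −2.22 and −1.64.

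The secreted and membrane antagonists held 5 genes at least 2-fold higher in HepG2 and 2 lower among the 8 compared with NC-siRNA. Of all genes, 27.9% were higher and 14.7% lower. Most of the 5, with NKD2 among them, were under 1 TPM in Huh7. They were compared through HepG2 alone and could only be higher there. By scaled coverage DKK4 and APCDD1, picked out after their values were seen, differed by 0.85 and 0.58 with NC-siRNA, short of 2-fold. NKD2, the relative of NKD1, was at 0.187 and 0.198 TPM in Huh7 and at 10.6 and 8.33 TPM in HepG2. KREMEN1, a receptor for DKK proteins, was at 1.24 and 1.75 TPM in Huh7 and at 12.5 and 11.8 TPM in HepG2. The antagonist DKK1 went the other way, with 49.0 and 53.1 TPM in Huh7 and 7.69 and 8.45 TPM in HepG2. So did DKK3, with 6.84 and 5.87 TPM against 0.475 and 0.178 TPM. DKK3 was compared through Huh7 alone and could only be lower in HepG2. The inhibitors of the pathway were therefore not all on the side of HepG2.

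Further Wnt targets and pericentral liver genes were split evenly, with 4 of 12 at least 2-fold higher in HepG2 and 4 lower with NC-siRNA. This was 33.3% each, beside 27.9% higher and 14.7% lower among all genes. ODAM, known from liver tumours with activated beta-catenin, was listed at 0 in both Huh7 libraries and at 6.45 and 7.70 TPM in HepG2. CD44, a cell surface receptor for hyaluronan, was at 54.8 and 72.0 TPM in Huh7 and at 0.0961 and 0.128 TPM in HepG2, a difference of −5.67 and −6.02. CCND1, which encodes cyclin D1, was at 154 and 132 TPM in Huh7 and at 15.7 and 22.0 TPM in HepG2. PROX1, a transcription factor of the liver, was at 42.6 and 30.3 TPM against 3.99 and 4.0 TPM. Some genes of pericentral hepatocytes on this list were picked out here after their values were seen. Those of them that reached 1 TPM were higher in HepG2, as were 63.0% of all genes compared with NC-siRNA, whatever the size of the difference. GLUL, the pericentral gene among the members and not on this list, was lower, at −0.25 with NC-siRNA and −0.14 with COP1-siRNA. OAT, an enzyme of ornithine metabolism, was at 53.9 and 44.0 TPM in Huh7 and at 200 and 220 TPM in HepG2, and RHBG, an ammonium transporter, was at 1.34 and 1.59 TPM against 3.21 and 4.45 TPM. CYP2E1, CYP1A2 and LECT2 were under 1 TPM in every library.

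**Figure D4:**
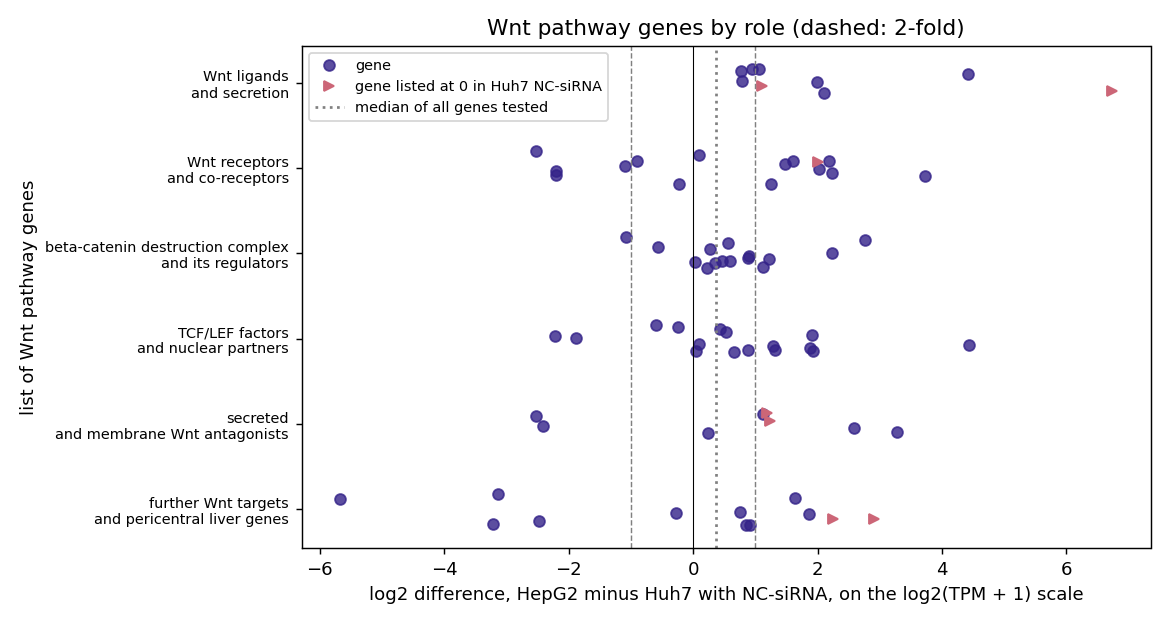
Difference of HepG2 from Huh7 with NC-siRNA on the log2(TPM + 1) scale (horizontal axis) for the 75 genes compared, by list (vertical axis, with a random vertical offset), with dashed lines at 2-fold and a dotted line at the median of all genes, 0.369. Triangles are the genes listed at 0 in Huh7, whose position depends on the added 1. The ligands all lie to the right of 0, where genes compared through HepG2 alone must lie. The other lists spread to both sides, from CD44 at −5.67 to LEF1 at 4.43. Furthest right, among the triangles, is WLS.

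The genes whose profile over the 4 libraries lay nearest to that of AXIN2, by Euclidean distance on the log2(TPM + 1) scale after centring each gene on its mean, were CDHR1, EDIL3 and TMEM163. Their distances were 0.017, 0.019 and 0.021 among 15485 genes ranked. All 3 were listed at 0 in both Huh7 libraries and lay at 2.39 to 2.47 TPM in HepG2. Among the other members NKD1 came nearest, at rank 807 with a distance of 0.321, followed by SP5 at rank 2851. Their nearness to AXIN2, which was at 1.41 and 1.43 TPM in Huh7, depends on the added 1, since no fold can be given for genes listed at 0.

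Of the 10 genes, SP5, LGR5, RNF43, ZNRF3 and TBX3 overlap other annotated genes, 7 in all, of which each was at most 0.86 TPM in any library. The library kit keeps the strand, but how reads of overlapping genes were divided is not given in the sources used here.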

How the data were processed

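RNA from both lines under each siRNA was sequenced in 1 library per condition, made from polyadenylated RNA with a stranded kit. Conditions were read from the titles of the libraries. The authors deposited 1 table per library that lists coverage, FPKM and TPM by gene. The TPM that the authors deposited sum to 1000000 in each library. The deposited FPKM are proportional to the TPM within a library, and the deposited coverage is a signal per base that is not scaled for depth. The submitters' processing notes name Trimmomatic 0.38, HISAT2 2.1.0 and StringTie 2.1.3b and the build GRCh38, without saying which step each served. Annotation and counting of overlapping genes are not given in the sources used here.

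The gene name column of the tables holds no symbols, so members were found by NCBI Gene number through RefSeq (GRCh38.p14), in which 96.3% of 46427 gene numbers were found. Values of the 49 gene numbers on several lines were summed. None of these was a member. Fold changes used a pseudocount of 1, a minimum of 1 TPM in 1 of the libraries compared and a threshold of 2-fold. There was no test, since no condition had a second library, and the number of reads and the precision of a value are unknown. The members and lists were chosen with earlier results of these data known. Genes named from the lists were the 4 with the largest difference past 2-fold per list and comparison and a fixed set of partners of beta-catenin. Others are said to be picked after their values were seen, as were TCF7L1 and RSPO1 to RSPO4. The 3 genes nearest to AXIN2 were also named. Alternatives were other scalings, pseudocounts, minima, a 1.5-fold threshold, FPKM, and protein-coding genes only. Scaled coverage was added after the values were seen. The computation was tested on simulated data, with large changes placed in genes of higher TPM. That check did not cover genes with low TPM. Python 3.11.15, numpy 2.4.6, pandas 2.3.3 and matplotlib 3.10.9 were used.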

Additional observations from a re-analysis of the deposited data

Results flagged for a closer look

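TBX3 and ZNRF3 moved in opposite directions in the lines with COP1-siRNA. The value of TBX3 was −0.19 in Huh7 and 0.10 in HepG2, a difference of 0.29 on the log2(TPM + 1) scale, and that of ZNRF3 was −0.02 and 0.07, a difference of 0.10. With 1 library per condition these differences between the lines were not tested. The Huh7 value of ZNRF3 was 0.03 with FPKM and 0.10 with upper-quartile scaling, so its direction was then no longer opposite.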

How the results depend on the processing

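No member passed 2-fold with COP1-siRNA in either line under any of the 11 alternatives, the 1.5-fold threshold included. At 1.5-fold, 6 of 10 members in place of 3 were higher in HepG2 with COP1-siRNA, beside 6150 of all 15126 genes. At the same threshold 1 list gene (DVL3) was lower with COP1-siRNA in Huh7 in place of 0, beside 349 of all 13000 genes. The COP1 value of −0.71 in HepG2 was also past 1.5-fold. With a minimum TPM of 5, 19 list genes in place of 33 were higher in HepG2 with NC-siRNA, beside 2795 of all 11396 genes. With COP1-siRNA, 19 in place of 29 were higher, beside 2592 of all 11361 genes. Fewer genes were compared at this minimum. SP5 in HepG2 against Huh7 with NC-siRNA was 0.95 with quantile scaling and 0.99 with scaled coverage, short of 2-fold, and with COP1-siRNA it was 1.04 with a pseudocount of 0.1. Of 443 values of single genes under the alternatives, 414 were counted as keeping their direction and side of the threshold. Among the rest, 17 values short of 2-fold changed sign, 7 came to pass the threshold and 5 came to fall short of it. Many of the 414 could not differ, since another minimum or protein-coding genes only leaves the value of a single gene as it was. A value that became 0 was also counted among the 414. Over all genes, those higher with COP1-siRNA, 83 in Huh7 and 78 in HepG2, ranged from 28 and 21 to 364 and 370, and those lower, 58 and 57, from 24 and 18 to 349 and 270. With a minimum TPM of 5 the 4194 and 3937 genes higher in HepG2 with NC-siRNA and COP1-siRNA became 2795 and 2592, and at 1.5-fold the latter became 6150. Leaving out a replicate was not possible with 1 library per condition. No paired analysis was possible because each condition had a single library. Depth limits NKD1 and NOTUM in Huh7 most, as both were under 1 TPM there.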
